A study of Homo sapiens with 9 samples.

Results

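Chromatin modifiers and remodellers were followed in NT2 cells during the first days of their differentiation, in the presence or absence of an organophosphate. The class was taken by gene symbol. It held the histone deacetylases (HDAC), sirtuins (SIRT), lysine demethylases (KDM), chromodomain helicases (CHD), bromodomain proteins (BRD) and arginine methyltransferases (PRMT). It also held the SMARC genes, which include SWI/SNF and ISWI subunits, and the MLL, SETD, EHMT, EZH and DOT1L groups, which include lysine methyltransferases. It comprised 92 of the 34623 gene names on the array and 156 probes, of which 48 genes had 1 probe and 44 had 2 or more, up to 5. Symbols are those of the array, and 16 probes now carry another symbol in RefSeq, such as KMT2A for MLL, KMT2D for MLL2, KMT2C for MLL3, KMT2B for MLL4, KMT2E for MLL5, KMT5A for SETD8 and PRMT9 for PRMT10.

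Writers add acetyl or methyl groups to histone tails, erasers remove them and readers bind the marks, while remodellers use ATP to slide, eject or exchange nucleosomes. In pluripotent cells these proteins keep developmental genes poised, and several of them are required when the cells leave that state under retinoic acid.

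NT2 (hNT2) is a human embryonal carcinoma line that gives rise to neuron-like cells when treated with retinoic acid. Cultures of all 3 groups, controls included, received differentiation medium with 10 μM retinoic acid for 4 days (96 h), without further treatment (control), with 1 μM paraoxon or with 5 μM mipafox. Paraoxon is an organophosphate that inhibits acetylcholinesterase, and mipafox is one that also inhibits neuropathy target esterase. Each group had 3 arrays, named A, B and C, of a single Cy3-labelled RNA each. They are biological replicates in the deposited labels and technical replicates in the study's methods, so that the spread between arrays, on which every p-value rests, may be technical.

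The arrays lay on 2 slides. Slide 1 carried control A, B and C and mipafox A, and slide 2 carried paraoxon A, B and C and mipafox B and C. Paraoxon and control therefore shared no slide, and for this comparison slide and treatment cannot be told apart array by array. Signals are given as normalized log2 signal, the log2 of the processed intensity minus the 75th percentile of the array, so that 0 is the level of that percentile. The percentile ranged from 802 to 1590 intensity units over the 9 arrays, and 65.7 to 73.6% of probes were well above background. Precision is limited by the number of arrays. The brightest probes of all 9 pluripotency genes looked at, POU5F1, SOX2 and NANOG among them, and of all 7 retinoic acid response genes, such as CYP26A1 and RARB, exceeded background clearly on all 9 arrays. Of the neural progenitor markers this held for 4 of 5, with SOX1 on 1 array. Of the neuron markers it held for 3 of 5, with STMN2 on 2 arrays. Of the 3 astrocyte markers it held for S100B, while AQP4 was well above background on 1 array and GFAP on none. Of markers of other cell types this held on all 9 arrays for both blood genes with a probe, PTPRC and CD3E, 1 of 3 fibroblast genes, 2 of 3 trophoblast genes and neither endoderm gene. PTPRC had group means of -5.96 in control, -4.81 with paraoxon and -5.58 with mipafox (adjusted p = 0.0764 and 0.807 in limma), and its part in the values below was not tested.

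The probes are 60 bases long. For KDM5B, a demethylase of lysine 4 of histone H3, the upstream and the downstream probe are shown because their values lay on opposite sides of control with paraoxon, and the SETD8 pair because its probes overlap. The lines give bases 1 to 30 of each probe, 5′ to 3′. The capitals in the SETD8 lines mark the 11 bases that lie in both of the stretches shown. The probes share more bases than these, as given below.
KDM5B A_33_P3276455, upstream: aatttgatgttgaacttccacagcttgctg
KDM5B A_32_P70724, downstream: atagcccatagctattttccttgcttttct
SETD8 A_32_P191527: ctcactgaagtgtatgaatATTTTTTAAAA
SETD8 A_32_P191859: ATTTTTTAAAAaggtttttgcagtaagcta
On hg19, the build of the files, the KDM5B probes lie on the minus strand at chr1:202710685-202710744 and chr1:202696745-202696804. The SETD8 probes lie on the plus strand at chr12:123892738-123892797 and chr12:123892757-123892816 and share 41 of their 60 bases. Exons and UTRs were not assigned here.

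No chromatin modifier was called in any of the 3 comparisons. A call required that limma, fitted to all 29134 tested probes, gave an adjusted p under 0.05 together with a log2 fold change larger than 1 in size. The share called among all tested probes was also 0 for paraoxon against control, 0 for mipafox against control and 0 for paraoxon against mipafox. At an adjusted p under 0.05 at any fold change the counts were again 0 of the 147 tested chromatin probes and 0 of all probes. All 92 genes had a tested probe, that is one well above background on all 3 arrays of some group, and 142 of the 156 probes were so on all 9 arrays.

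The log2 fold changes were small. In RNA of whole cultures, fewer cells of a type and less RNA per cell cannot be told apart. With paraoxon they ran from -0.99 to 0.52 with a median of -0.05, against 0.01 over all tested probes, and 132 of 147 (89.8%) lay within 0.5 of 0, against 84.1% of all probes. With mipafox they ran from -1.20 to 0.51 with a median of -0.01, against 0.00, and 141 (95.9%) lay within 0.5, against 90.8%. The median standard error of a log2 fold change was 0.19 in both. The smallest adjusted p in limma was 0.166 with paraoxon and 0.340 with mipafox. Both comparisons use the same 3 control arrays, so they are not independent of each other.

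At an unadjusted p under 0.05, 15 chromatin probes (10.2%) differed between paraoxon and control, against 13.3% of all tested probes. Of these, 3 were higher (2.04%, against 7.31% of all) and 12 lower (8.16%, against 6.02%). This count hung on single arrays: it was 2 without control A, 7 without control B, 8 without paraoxon C and 9 without mipafox B. For mipafox against control 7 probes (4.76%) passed, against 6.96% of all, with 2 higher (1.36%, against 2.96%) and 5 lower (3.40%, against 4.00%). It became 23 without mipafox A, 4 without control B, 4 without control C and 3 without mipafox B. The shares of all probes with an array left out are not given here, so these counts are not read as a trait of the class. With all 9 arrays, shares of the class were below those of all probes in 3 of the 4 directions. The fourth, lower with paraoxon, stood slightly above.

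Slide was also entered as a block, through the mipafox arrays, which lay on both slides. Mipafox A was the only exposed array on slide 1. The blocked mipafox value of a probe therefore equals mipafox A minus control. For paraoxon that difference is added to paraoxon minus mipafox B and C, so both blocked values against control depend on the single array mipafox A. The block left the counts against control within 1.5 times, raised the count between the organophosphates from 3 to 7, and moved single probes. The log2 fold change changed sign at 58 of the 147 chromatin probes with paraoxon and at 49 with mipafox, and 6 and 2 probes then lay beyond 1. For sign changes and values beyond 1, the share of all probes is not given here. With paraoxon 3 chromatin probes were higher (2.04%, against 4.16% of all) and 8 lower (5.44%, against 3.86%) at an unadjusted p under 0.05. With mipafox 1 was higher (0.680%, against 1.87%) and 6 lower (4.08%, against 3.61%). For paraoxon against mipafox 2 were higher (1.36%, against 3.21%) and 5 lower (3.40%, against 2.17%). At an adjusted p under 0.05 at any fold none of the 147 passed in the blocked fit, against 0.00343% of all probes with paraoxon, 0.0206% with mipafox and 0% between the organophosphates. Within slide 2 alone, 88 of 147 probes were lower with paraoxon than on mipafox B and C, with a median of -0.05. Within slide 1 alone 70 were lower on mipafox A than in control, with a median of 0.02. These are the same differences that the blocked fit uses, not separate results.

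The groups can also be compared array by array. All 3 paraoxon arrays were above all 3 control arrays at 11 chromatin probes (7.48%, against 12.4% of all probes) and below them at 23 (15.6%, against 11.1%). For mipafox the arrays did not overlap at 8 probes above control (5.44%, against 5.33%) and 12 below (8.16%, against 6.46%). By this count the share of the class was above that of all probes in 3 of the 4 directions, other than paraoxon above control.

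**Figure D1:**
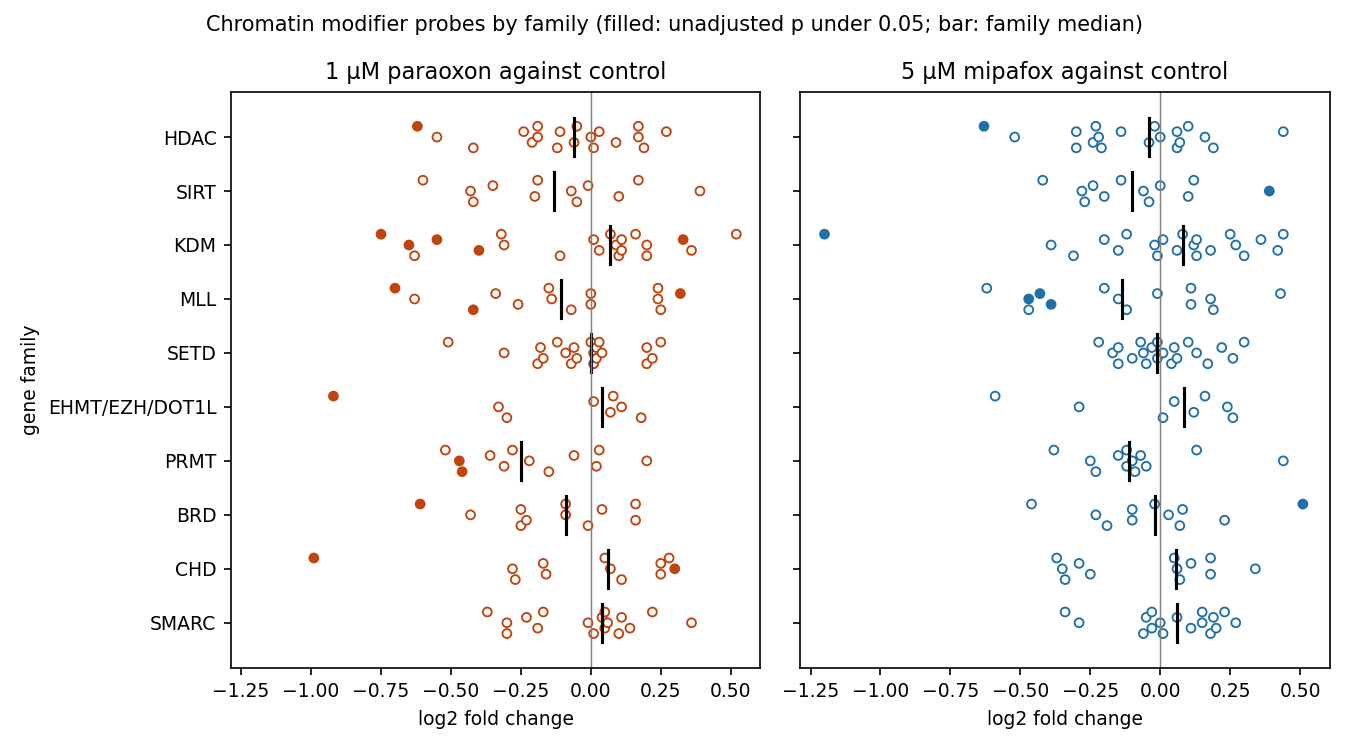
Log2 fold change of each of the 147 tested chromatin probes against control (x axis), by gene family (y axis), with 1 μM paraoxon on the left and 5 μM mipafox on the right. Filled points have an unadjusted p under 0.05 and black bars are family medians, which lie between -0.25 and 0.09 throughout.

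Among the erasers of acetyl marks, the histone deacetylases stayed close to control. The median log2 fold change of the 19 tested HDAC probes was -0.06 with paraoxon and -0.04 with mipafox. HDAC1 and HDAC2, the catalytic subunits of the NuRD, Sin3 and CoREST corepressors, were bright on every array. In the order A, B, C, kept from here on, HDAC1 read 4.42, 4.53 and 4.50 in control, 4.37, 4.33 and 4.57 with paraoxon and 4.64, 4.60 and 4.52 with mipafox, which overlap between all groups. Its log2 fold change was -0.06 ± 0.13 (SE) with paraoxon and 0.10 ± 0.13 with mipafox, and that of HDAC2 was -0.12 ± 0.18 and -0.22 ± 0.18.

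HDAC11, the only class IV deacetylase, held the 1 HDAC probe at an unadjusted p under 0.05. A_33_P3417936 read -4.00, -4.14 and -3.99 in control, -4.32, -4.58 and -5.10 with paraoxon, and -4.11, -4.95 and -4.95 with mipafox. The paraoxon arrays all lay below control, and mipafox A, on the control slide, lay within the range of the controls. The log2 fold change was -0.62 ± 0.27 (adjusted p = 0.351 in limma) with paraoxon and -0.63 ± 0.27 (adjusted p = 0.697) with mipafox. With slide as a block the paraoxon value was 0.21. The other HDAC11 probes gave -0.24 and -0.42 with paraoxon. HDAC10, a cytosolic polyamine deacetylase, was at 0.44 ± 0.21 with mipafox (adjusted p = 0.762). HDAC9, a class IIa enzyme of muscle and neurons, was at 0.17 ± 0.29 with paraoxon and -0.04 ± 0.29 with mipafox.

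The sirtuins, which need NAD as cofactor, had a median of -0.13 with paraoxon and -0.10 with mipafox, with 9 of 12 probes lower in each. None of the 12 had an unadjusted p under 0.05 with paraoxon. With mipafox 1 did, a probe of the mitochondrial SIRT5, A_23_P307955, at 0.39 ± 0.17 (adjusted p = 0.713), and its paraoxon value was also 0.39 (adjusted p = 0.377). That probe read -4.14, -3.98 and -4.26 on the control arrays, -3.83, -3.73 and -3.65 with paraoxon, and -4.07, -3.51 and -3.62 with mipafox. With slide as a block it was at 0.05 ± 0.18 with mipafox and -0.12 ± 0.23 with paraoxon. The other 3 SIRT5 probes were lower in both, from -0.60 to -0.05 with paraoxon and from -0.42 to -0.06 with mipafox. SIRT1, the nuclear deacetylase, was at 0.17 ± 0.31 and -0.24 ± 0.31, as its mipafox arrays spread from -0.97 to 0.25.

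The lysine demethylases were the family with the most probes below an unadjusted p of 0.05 with paraoxon, 4 lower and 1 higher of 21, around a median of 0.07. One of these, KDM5A, passed the filter only through the control group, as given below. The other 4 were both probes of KDM5B and 1 each of KDM5C and KDM2A. KDM5A, KDM5B and KDM5C remove methyl groups from lysine 4 of histone H3. KDM5B read 0.98, 0.76 and 0.75 in control at its upstream probe, 0.34, 0.42 and 0.07 with paraoxon and 0.14, 0.41 and 0.77 with mipafox. At its downstream probe it read 2.48, 2.49 and 2.40 in control, 2.70, 2.68 and 2.98 with paraoxon and 2.59, 2.82 and 2.84 with mipafox. Every paraoxon array was thus below control at the upstream probe and above control at the downstream one. The log2 fold changes with paraoxon were -0.55 ± 0.19 (adjusted p = 0.242) upstream and 0.33 ± 0.14 (adjusted p = 0.352) downstream, and with mipafox -0.39 ± 0.19 and 0.30 ± 0.14 (adjusted p = 0.757 and 0.753). With slide as a block the paraoxon values were -1.01 ± 0.29 and 0.09 ± 0.23.

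KDM5C, an X-linked demethylase with mutations in intellectual disability, was lower with paraoxon at its upstream probe alone. That probe read -4.45, -4.73 and -5.06 in control and -5.07, -5.75 and -5.36 with paraoxon, a log2 fold change of -0.65 ± 0.22 (adjusted p = 0.237). Its downstream probe was at 0.20 ± 0.27, with paraoxon arrays from 0.38 to 1.38 that overlapped the control arrays at 0.35 to 1.00.

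KDM5A, which binds the retinoblastoma protein, was well above background on the 3 control arrays and on none of the 6 exposed ones. Its probe read -6.61, -6.57 and -7.12 in control, -7.62, -7.79 and -7.15 with paraoxon and -7.89, -7.60 and -8.41 with mipafox. Because the exposed arrays give only a bound, control was at least 1.65-fold higher than paraoxon and at least 1.71-fold higher than mipafox. The measured log2 fold changes were -0.75 ± 0.26 (adjusted p = 0.251) and -1.20 ± 0.26 (adjusted p = 0.340), the latter the 1 chromatin value beyond 1 in size. At an unadjusted p under 0.05 and beyond that limit there were thus 0 chromatin probes with paraoxon, against 2.19% of all probes, and 1 with mipafox, against 0.844%. The probe entered the test only through the control group, so its selection favoured a higher control. How far this entered its values was not tested.

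The other demethylases lay closer to 0 or were variable. KDM2A, a demethylase of histone H3, was at -0.40 with paraoxon (adjusted p = 0.361), with arrays at -0.81, -0.96 and -1.38 against -0.49, -0.68 and -0.78 in control. KDM4B and KDM4D, which act on trimethylated histone H3, were at 0.25 and 0.27 with mipafox (adjusted p = 0.762 for both). KDM6B, an eraser of the Polycomb mark, was at 0.03 ± 0.16 with paraoxon and 0.12 ± 0.16 with mipafox. KDM1A, the lysine-specific demethylase of the CoREST complex, read 1.46, 0.85 and 1.31 in control, 0.51, 1.34 and 0.83 with paraoxon and 0.29, 1.08 and 2.79 with mipafox. The mipafox arrays alone thus spanned 2.50, and the standard error was 0.54 in both comparisons. With slide as a block the paraoxon value of KDM1A was -1.96 ± 0.76 in place of -0.32. That of KDM1B A_23_P145035 was -1.60 ± 0.59 in place of 0.01.

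**Figure D2:**
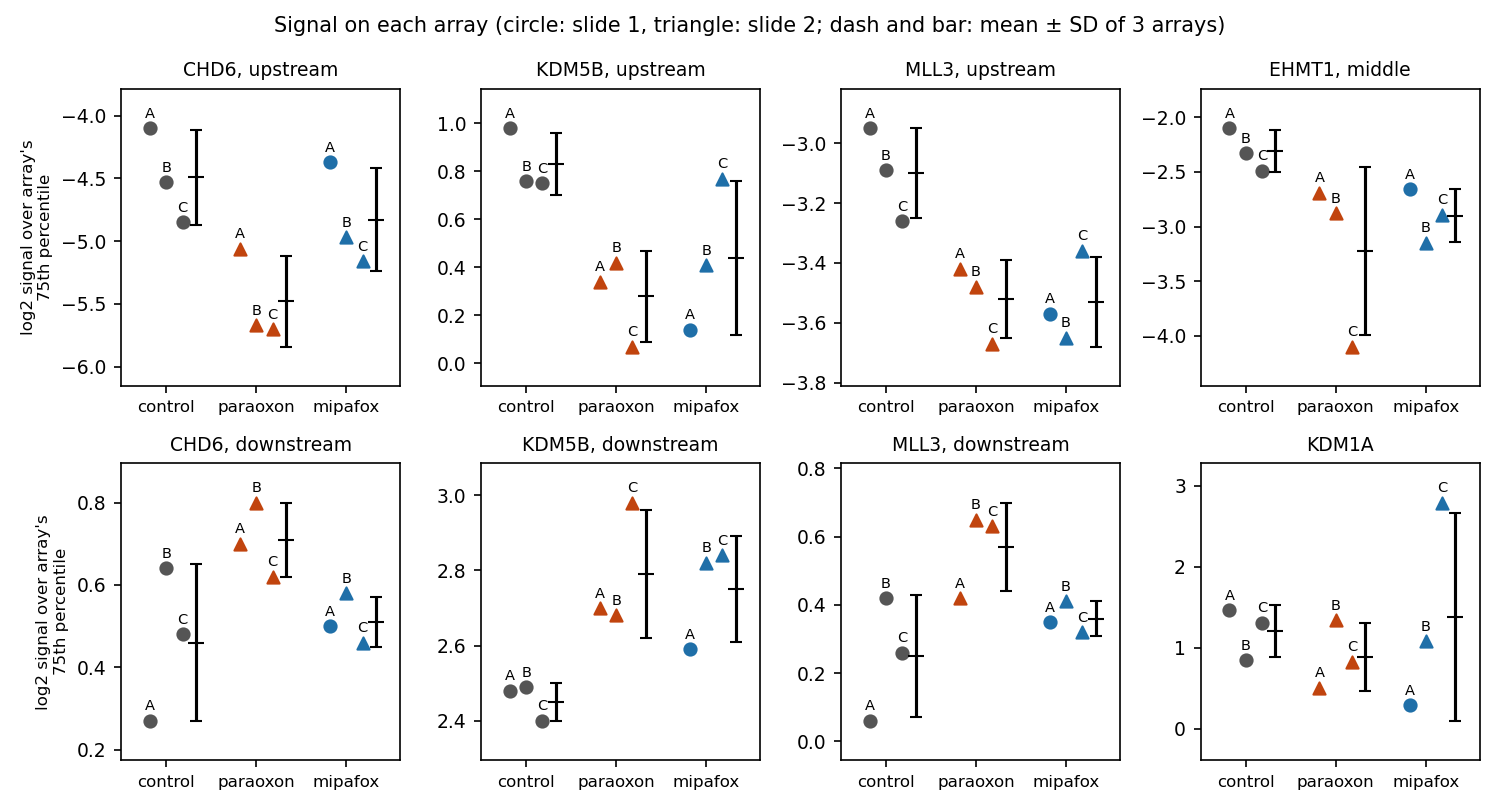
Normalized log2 signal (y axis, log2 over the 75th percentile of the array) of 8 probes on each array, with letters for the array, circles for slide 1, triangles for slide 2, and a dash and bar for the mean ± SD of 3 arrays. CHD6, KDM5B and MLL3 are lower with paraoxon than control at the upstream probe but not at the downstream probe, and KDM1A spans 0.29 to 2.79 among the mipafox arrays.

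Among the writers of methyl marks and their relatives, the MLL group includes methyltransferases of lysine 4 of histone H3 at promoters and enhancers. Its 14 probes had medians of -0.11 with paraoxon and -0.14 with mipafox, with 9 of them lower in each. MLL3 read -2.95, -3.09 and -3.26 on the control arrays at its upstream probe A_33_P3321275, -3.42, -3.48 and -3.67 with paraoxon and -3.57, -3.65 and -3.36 with mipafox. Neither exposure overlapped control there, and the log2 fold changes were -0.42 ± 0.15 (adjusted p = 0.260) and -0.43 ± 0.15 (adjusted p = 0.593). At its downstream probe A_33_P3301306 the paraoxon arrays, at 0.42, 0.65 and 0.63, lay at or above the control arrays, at 0.06, 0.42 and 0.26, for a log2 fold change of 0.32 ± 0.14 (adjusted p = 0.374). KDM5B and MLL3 were the genes in which 2 probes differed in sign with paraoxon, each at an unadjusted p under 0.05.

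MLL5 differed between its probes too. A_33_P3277407 read -3.52, -3.89 and -4.04 in control, -4.39, -4.90 and -4.26 with paraoxon and -3.68, -4.14 and -4.24 with mipafox, with log2 fold changes of -0.70 ± 0.23 (adjusted p = 0.226) and -0.20 ± 0.23, and with slide as a block the paraoxon value was -0.19 ± 0.37. A_24_P196704 was at -0.34 ± 0.17 with paraoxon and -0.47 ± 0.17 with mipafox (adjusted p = 0.626), and the remaining pair at -0.14 and 0.00 with paraoxon. MLL itself, fused to other genes in leukaemia, had its brightest probe A_33_P3390570 at 1.27, 1.59 and 1.49 in control, 1.08, 1.42 and 1.40 with paraoxon and 0.96 to 1.12 with mipafox. The mipafox arrays were all below control, by a log2 fold change of -0.39 ± 0.15 (adjusted p = 0.649), while paraoxon overlapped control at -0.15 ± 0.15. The upstream MLL probe A_33_P3350343 was well above background in control alone and entered the test only through that group. It read -6.18, -6.90 and -6.80 in control and -6.65, -6.54 and -6.91 with paraoxon. With mipafox it read -8.32, -6.87 and -6.56. Both exposures overlapped control, so no difference is read from this probe. MLL2 was at 0.24 and 0.19, and the MLL4 probes between -0.01 and 0.24.

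The SETD group, which includes writers of several histone lysine marks, was centred on control. Its 21 probes had medians of 0.00 with paraoxon and -0.01 with mipafox, ranged from -0.51 to 0.30, and none had an unadjusted p under 0.05 in either. SETDB1, the lysine 9 methyltransferase that silences retroviral repeats, was at 0.01 ± 0.17 and 0.13 ± 0.17. The overlapping SETD8 probes, which share 41 bases, gave -0.05 and -0.19 with paraoxon and -0.03 and -0.15 with mipafox, differences smaller than their standard errors of 0.20 and 0.21.

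EZH2 and EZH1, the catalytic subunits of Polycomb repressive complex 2, were at 0.01 ± 0.15 and 0.18 ± 0.18 with paraoxon and 0.01 ± 0.15 and 0.26 ± 0.18 with mipafox. EZH2 read 1.63, 1.78 and 1.72 in control, 1.57, 1.92 and 1.66 with paraoxon and 1.92, 1.69 and 1.56 with mipafox, overlapping throughout. EHMT2, the lysine 9 dimethyltransferase G9a, was at -0.30 ± 0.17 and 0.05 ± 0.17, and DOT1L, the lysine 79 methyltransferase, at 0.11 ± 0.20 and 0.24 ± 0.20. In EHMT1, the partner of EHMT2, the probe A_23_P20894 read -2.10, -2.33 and -2.49 in control, -2.69, -2.88 and -4.10 with paraoxon and -2.66, -3.15 and -2.89 with mipafox. Both exposures lay below control there, with log2 fold changes of -0.92 ± 0.33 (adjusted p = 0.277) and -0.59 ± 0.33 (adjusted p = 0.818), and paraoxon C was the lowest of the 9 arrays. The downstream EHMT1 probe A_23_P217120 was at 0.08 and 0.12.

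The arginine methyltransferases had the lowest family median with paraoxon, -0.25, with 9 of 12 probes lower, and -0.11 with mipafox, with 10 of 12 lower. PRMT1, the main asymmetric arginine methyltransferase, read 3.74, 3.59 and 3.59 in control, 3.37, 3.35 and 2.82 with paraoxon and 3.72, 3.26 and 3.20 with mipafox. Paraoxon did not overlap control, and mipafox A, on the control slide, was among the controls while mipafox B and C were among the paraoxon arrays. The log2 fold changes were -0.46 ± 0.20 (adjusted p = 0.358) and -0.25 ± 0.20 (adjusted p = 0.886), and with slide as a block the paraoxon value was 0.03. PRMT2, a coactivator of nuclear receptors, was at -0.47 ± 0.20 (adjusted p = 0.353) with paraoxon at A_23_P80156, where paraoxon C, at -0.33, lay below 0.49 and 0.32 of paraoxon A and B. PRMT5, the symmetric arginine methyltransferase, was at -0.36 ± 0.18 and -0.07 ± 0.18.

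Among the readers, the 11 BRD probes had medians of -0.09 and -0.02. BRD3, a BET protein that binds acetylated histones, held the named values of both comparisons at different probes. A_24_P32887 read 1.09, 0.64 and 0.42 in control, 0.32, 0.14 and -0.14 with paraoxon and 0.69, 0.46 and 0.43 with mipafox, with a log2 fold change of -0.61 ± 0.20 (adjusted p = 0.233) with paraoxon and -0.19 ± 0.20 with mipafox. A_23_P216689, downstream of it, read 2.21, 1.88 and 1.98 in control, 2.14, 2.15 and 2.25 with paraoxon and 2.25, 2.50 and 2.85 with mipafox, with 0.16 ± 0.18 and 0.51 ± 0.18 (adjusted p = 0.578). The paraoxon arrays were below control at the former probe, and the mipafox arrays above control at the latter.

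Of the remodellers, CHD6, a chromodomain helicase, had the largest log2 fold change of the class with paraoxon and its smallest p. The upstream probe read -4.10, -4.53 and -4.85 in control, -5.06, -5.67 and -5.70 with paraoxon and -4.37, -4.97 and -5.16 with mipafox. All paraoxon arrays were below control, and the mipafox arrays overlapped both groups. The log2 fold change was -0.99 ± 0.28 (adjusted p = 0.166) with paraoxon and -0.34 ± 0.28 (adjusted p = 0.891) with mipafox, and with slide as a block the paraoxon value was -0.29 ± 0.44. The downstream probe, at 0.27, 0.64 and 0.48 in control and 0.70, 0.80 and 0.62 with paraoxon, was at 0.25 ± 0.14. CHD2, a remodeller that deposits histone H3.3, was at 0.30 ± 0.12 (adjusted p = 0.315) with paraoxon at its downstream probe, which read -0.35, -0.40 and -0.40 in control against -0.07, -0.02 and -0.14. CHD4, the NuRD ATPase, was at -0.27 ± 0.21 and 0.07 ± 0.21, and CHD7, mutated in CHARGE syndrome, at 0.28 ± 0.16 and 0.06 ± 0.16.

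The SMARC family includes SWI/SNF and ISWI subunits. The medians of its 17 probes were 0.04 with paraoxon and 0.06 with mipafox, the range -0.37 to 0.36, and no probe had an unadjusted p under 0.05 in either. SMARCA4, the BRG1 ATPase that serves the SWI/SNF complex of pluripotent cells, read 4.99, 4.86 and 4.78 in control, 4.74, 4.93 and 4.93 with paraoxon and 5.15, 4.79 and 4.61 with mipafox, with log2 fold changes of -0.01 ± 0.16 and -0.03 ± 0.16. SMARCA2, the alternative ATPase BRM, was at 0.22 ± 0.36 and 0.23 ± 0.36. With slide as a block some values lay far from these: with paraoxon SMARCA2 was at -1.10 ± 0.41, SMARCAD1 A_33_P3351474 at -1.04 ± 0.34 in place of 0.05, and SMARCAL1 at 0.76 ± 0.31 in place of 0.06. The core subunits SMARCB1, SMARCC1 and SMARCC2 were at 0.04 ± 0.22, -0.37 ± 0.22 and 0.11 ± 0.18 with paraoxon and 0.27 ± 0.22, -0.34 ± 0.22 and 0.19 ± 0.18 with mipafox. SMARCD3, the BAF60C subunit of heart and neurons, was at -0.30 ± 0.21 and -0.06 ± 0.21.

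Because the same gene often gave different values at different probes, the probes were ordered along the gene by their hg19 position and strand. In 37 of the genes, 2 or more tested probes lay at least 60 bases apart, and the most upstream and the most downstream probe were compared. With paraoxon the median was -0.19 at the upstream and 0.05 at the downstream probe, and with mipafox -0.20 and 0.11. The downstream minus upstream difference was above 0 in 28 of 37 genes (75.7%) with paraoxon, with a median of 0.20, and in 30 of 37 (81.1%) with mipafox, with a median of 0.20. The other genes with 2 such probes on the array showed much the same, 72.4% of 4352 genes and a median of 0.21 with paraoxon and 71.3% of 4350 genes and 0.16 with mipafox, so the pattern was not particular to chromatin modifiers.

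With paraoxon the difference was largest in CHD6 (1.24), KDM5B (0.88), KDM5C (0.84), MLL3 (0.74), SETD5 (0.72) and KDM4B (0.70). With mipafox it was 0.97 in BRD3, 0.69 in KDM5B and 0.62 in KDM5C. MLL gave no readable difference, since its upstream probe was not well above background on any exposed array. Without it the counts were 27 of 36 genes with paraoxon and 29 of 36 with mipafox. These counts still hold HDAC4, at 0.26 with paraoxon and 0.19 with mipafox. Its upstream probe entered the test only through the control group, so its selection favoured a higher control there. That probe was well above background on 1 paraoxon and 2 mipafox arrays. The difference ran the other way with paraoxon in SETD6 (-0.34), KDM6A (-0.25) and MLL4 (-0.24). At an unadjusted p under 0.05 with paraoxon, the 3 higher probes, of KDM5B, MLL3 and CHD2, were downstream ends, and of the 12 lower ones 4 were upstream ends, 5 lay between the ends and 3 had no second position. With mipafox, of the 2 higher probes 1 was a downstream end and 1 lay between, and of the 5 lower ones 2 were upstream ends, 2 lay between and 1 had no second position.

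**Figure D3:**
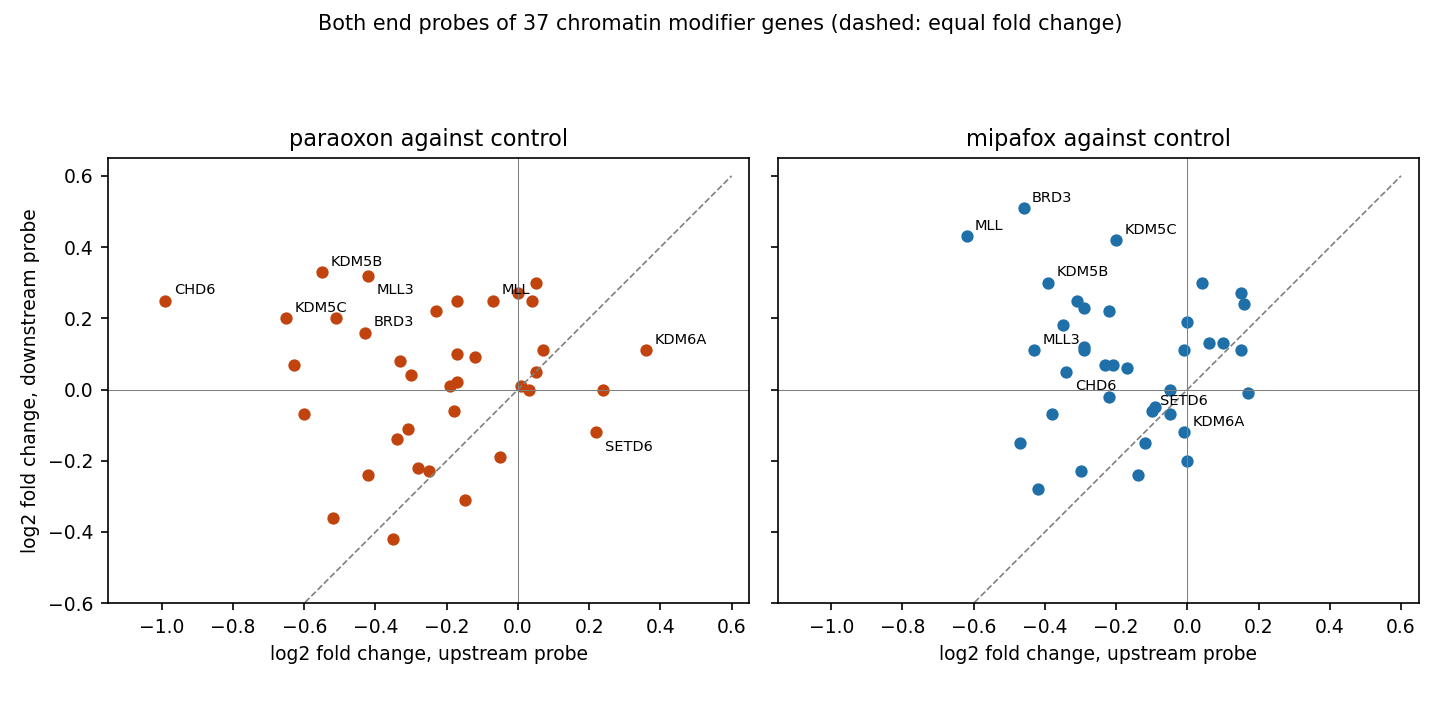
Log2 fold change of the downstream probe (y axis) against that of the upstream probe (x axis) in 37 chromatin modifier genes, with paraoxon on the left and mipafox on the right; the dashed line marks equal values. Points above the line, 28 with paraoxon and 30 with mipafox, have the higher fold change downstream. The MLL point rests on an upstream probe not well above background with either exposure.

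The end difference was also read from each array, relative to the control mean. In the order A, B, C, its median over the 37 genes was -0.03, 0.00 and 0.01 for the control arrays, 0.18, 0.07 and 0.36 for paraoxon and 0.17, 0.20 and 0.32 for mipafox. All 6 exposed arrays were above all 3 control arrays. Mipafox A, which shared slide 1 with the controls, was higher downstream in 22 of 37 genes, against 65.2% of the other genes. Within slide 2, paraoxon against mipafox B and C gave 20 of 37 genes, against 53.1% of the others, and a median of 0.01. With the ends at least 1000 bases apart the counts were 27 of 33 genes with paraoxon (against 76.5% of the others) and 28 of 33 with mipafox (against 74.6%). The part of RNA quality in this difference was not tested.

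**Figure D4:**
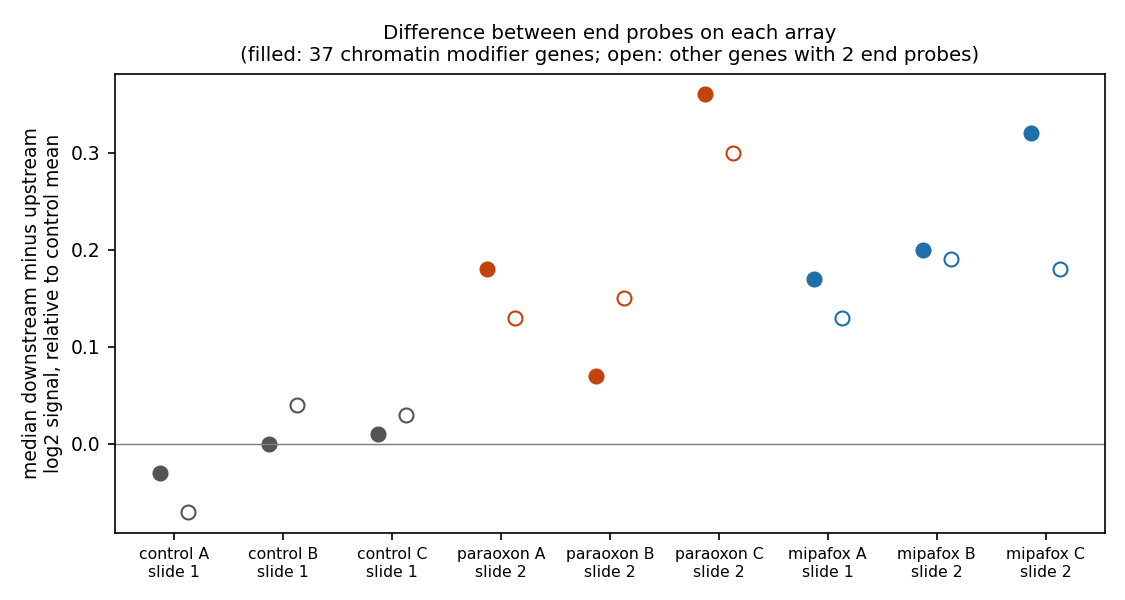
Median difference between the downstream and the upstream probe (y axis, log2 signal relative to the control mean) on each of the 9 arrays (x axis, with slide), for the 37 chromatin modifier genes (filled) and the other genes with 2 end probes (open). The control arrays sit between -0.07 and 0.04 and the exposed arrays between 0.07 and 0.36 in both sets.

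The GC content of the probes, 25.0 to 58.3% with a median of 41.7%, also went with the paraoxon values. Among the 65 probes of 45% GC or more 49 were lower and the median was -0.22, and among the 82 probes under 45% 30 were lower and the median was 0.04. With mipafox the medians were -0.10, with 42 lower, and 0.02, with 37 lower. Across the 147 probes, which share the same 9 arrays and in part the same genes, the correlation of log2 fold change with GC content was -0.39 (Pearson) and -0.44 (Spearman) with paraoxon and -0.14 and -0.19 with mipafox. Over all 29134 probes it was -0.07 and -0.13, and -0.02 and -0.01. Whether the gap between the class and all probes exceeds chance was not tested. Within slide 2, paraoxon against mipafox B and C gave medians of -0.09 and 0.00 for the GC-rich and GC-poor probes, and within slide 1 mipafox A against control gave 0.02 for both.

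GC content and position were mixed in part. The upstream probe had the more GC in 17 of the 37 genes, and of these 14 were higher downstream with paraoxon, with a median of 0.43. It had less GC in 12 genes, of which 8 were higher downstream with a median of 0.14, and as much in 8 genes, of which 6 were, with a median of 0.21. With mipafox the counts were 16 of 17, 7 of 12 and 7 of 8. KDM4B and KDM5C, with 55.0% GC upstream and 41.7% downstream, were of the former kind, and MLL3, with 35.0% at both probes, was of the latter.

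**Figure D5:**
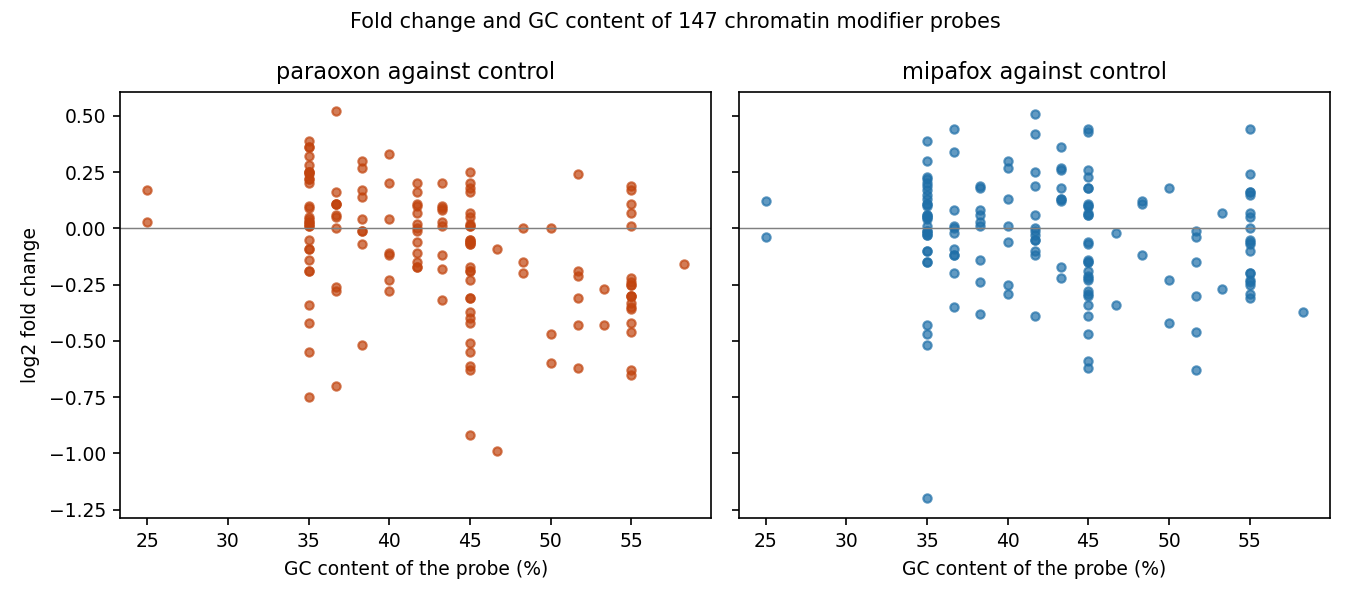
Log2 fold change (y axis) against the GC content of the probe in percent (x axis) for the 147 tested chromatin probes, with paraoxon on the left and mipafox on the right. Probes of 45% GC or more centre on -0.22 with paraoxon and -0.10 with mipafox, and the others on 0.04 and 0.02.

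Between the organophosphates the differences were smaller still. Given at different doses, 1 μM and 5 μM, paraoxon and mipafox are set side by side without reading potency. The log2 fold change of paraoxon against mipafox had a median of -0.05, against 0.01 over all probes, and 145 of 147 probes (98.6%) lay within 0.5 of 0, against 94.8% of all. At an unadjusted p under 0.05 and beyond 1 log2 there were 0 chromatin probes, against 0.254% of all. At that p alone, 3 chromatin probes (2.04%) passed, against 4.02% of all, 0 higher (against 2.87%) and 3 lower (2.04%, against 1.15%). The count was between 0 and 8 when arrays were left out in turn, with 0 without paraoxon B, 1 without control B, 5 without control A or paraoxon A, 6 without paraoxon C, 7 without mipafox A and 8 without mipafox C. The shares of all probes in those fits are not given here. The 3 were CHD6 upstream at -0.65 ± 0.28, SMARCB1 A_33_P3343073 at -0.45 ± 0.18 and SIRT6, a chromatin-bound sirtuin of DNA repair, at -0.32 ± 0.14, each at an adjusted p of 0.998 in limma. SMARCB1 read 0.25, -0.06 and 0.32 with paraoxon against 0.37, 0.75 and 0.74 with mipafox. All 8 EHMT, EZH and DOT1L probes, 17 of 21 SETD probes, 10 of 12 PRMT probes and 9 of 11 BRD probes were lower with paraoxon than with mipafox, as were 13 of 21 KDM, 11 of 17 SMARC, 7 of 12 SIRT, 8 of 19 HDAC, 6 of 14 MLL and 5 of 12 CHD probes, against 13846 of 29134 probes in all.

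The spread between arrays set what could be seen. The range over the 3 arrays of a group had a median of 0.28 in control and 0.44 with each exposure over the 147 probes, and exceeded 1 at 0, 12 and 17 probes with control, paraoxon and mipafox, against 6.52, 10.1 and 14.8% of all probes. Of the 17 with mipafox, 13 had array C highest and array A lowest, for example KDM1B at -5.89, -4.95 and -3.61, SMARCA2 at -1.48, -0.55 and 0.23, KDM3A at -2.32, -1.62 and -0.70 and SETD2 at -1.59, -1.06 and -0.11 from mipafox A to C. The spread between spots was smaller at 4 of the 5 probes that had 10 spots. The median SD between spots of an array was 0.038, 0.051, 0.052 and 0.056 for HDAC1, HDAC2, KDM4C and PRMT6, against 0.09, 0.21, 0.23 and 0.11 between arrays of a group. For SMARCAD1 it was 0.076 against 0.06.

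When limma weighted each array by its own scatter, from 0.28 for mipafox C to 4.37 for control B, no chromatin probe passed the fold change limit, but an adjusted p under 0.05 was reached at any fold by 8 chromatin probes (5.44%, against 13.8% of all) with paraoxon and by 24 (16.3%, against 19.8%) with mipafox. With paraoxon the lower ones were KDM5A, KDM5B upstream (-0.44, adjusted p = 0.0185), the MLL5 probes A_33_P3277407 and A_24_P196704, and MLL. The higher ones were CHD2 (0.32, adjusted p = 0.0183), HDAC10 and HDAC7. KDM5A, also among the lower ones with mipafox, entered the test only through the control group, so its selection favoured a higher control here too. With mipafox, 13 were higher, led by BRD3 (0.57, adjusted p = 0.00948) and HDAC10 (0.77, adjusted p = 0.0103), and 11 lower, such as MLL3 (-0.49, adjusted p = 0.0127). With paraoxon against mipafox there were 0 (against 0% of all). The weights were estimated from the same arrays that were tested. In each group a single array weighed most: control B (4.37), paraoxon A (3.33) and mipafox B (3.05). The adjusted p-values of the weighted fit take these weights as known, and how far this lowered them was not tested.

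The 9 untested probes were dim. CHD5, a neural helicase, was well above background on no array at 2 of its 3 probes, and the third was above it on all 9. HDAC9 A_24_P206317, KDM4C A_33_P3236035, SETD3 A_33_P3403952 and CHD2 A_24_P184844 were likewise above background nowhere. BRD8 A_33_P3417517 was so on 4 arrays and KDM1B A_23_P338401 on 2, both of control. KDM4C A_24_P93754, chosen after its values were seen, read -7.54, -7.38 and -7.38 on the control arrays, none of them well above background, -5.99, -5.71 and -6.11 with paraoxon, of which 2 were, and -8.33, -7.00 and -6.11 with mipafox, of which 1 was, while KDM4C A_23_P112201 was at 0.16 ± 0.19 with paraoxon.

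Other genes of the same pathways, listed by name, gave no call either. Of 88 such genes 81 had a tested probe, 119 in all, with medians of 0.00 with paraoxon and 0.01 with mipafox. At an unadjusted p under 0.05, 4 were higher (3.36%, against 7.31% of all) and 7 lower (5.88%, against 6.02%) with paraoxon, and 0 higher (against 2.96%) and 6 lower (5.04%, against 4.00%) with mipafox. The lowest p with paraoxon was at RBBP5, a core subunit of the MLL complexes, at -0.74 ± 0.18 (adjusted p = 0.120), and with mipafox at TET2, an eraser of DNA methylation, at -0.77 ± 0.21 (adjusted p = 0.449). HELLS, a remodeller needed for DNA methylation, was at -0.62 ± 0.21 and -0.73 ± 0.21 (adjusted p = 0.235 and 0.464). The 10 acetyltransferase probes, the writers that oppose the deacetylases, had 0 probes at that threshold in any comparison and medians of 0.11 and 0.02.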

How the data were processed

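RNA of 9 NT2 cultures or aliquots, 3 per group, was hybridized to single-colour Agilent arrays. The spot intensities were extracted by the authors with Agilent Feature Extraction 10.5.1.1, which subtracts background, and the processed signal was deposited with flags for outliers, saturation and signal well above background. A table of processed log2 values deposited by the authors was used as an alternative, and its normalization is not given in full in the sources used here.

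Here outlier spots were left out, the processed signal was taken to log2, the 75th percentile of each array was subtracted and spots were averaged by probe. Of 42405 probes, 29134 were tested, those well above background, in at least a share of 0.5 of their unflagged spots, on the 3 arrays of 1 group or more. A fit of all 9 arrays with limma 3.58.1 (R 4.3.3) gave moderated p-values, adjusted by Benjamini-Hochberg over all tested probes. All p-values in the text come from limma. Figures were drawn with matplotlib 3.10.9. The code was tested on simulated data.

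A bound for a probe not well above background in a group took, per array, the higher of its own signal and the lowest signal among probes well above background. Probes were matched by accession to RefSeq (GRCh38.p14) for current symbols alone, 146 of 156.

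Named probes were the 12 with the smallest p in each comparison with control, the 5 between the organophosphates, fixed genes at their brightest probe (1 of them not reported here), and genes with 2 probes of opposite sign at an unadjusted p under 0.05. Members, gene lists and this rule were chosen with earlier results of these data known. Alternatives were quantile normalization, normexp background (offset 50), the authors' values, other filters, slide or letter as a block, fewer arrays, array weights, 1 probe per gene and another variance model. The end comparison and its alternatives were chosen after seeing the data.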

Additional observations from a re-analysis of the deposited data

How the results depend on the processing

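The count of called chromatin probes was 0 in all 3 comparisons under the alternatives of normalization, background, filter, slide or letter block, array weights, variance model and probes per gene, and from 0 to 0 with each array left out in turn. The exception was a call at an unadjusted p under 0.05 and beyond 1 log2, which took 1 probe, KDM5A, with mipafox. With slide as a block, 12 of the 36 probes named for paraoxon changed sign, and so did 9 of 34 for mipafox. Of those at an unadjusted p under 0.05 with paraoxon, HDAC11 A_33_P3417936 went to 0.21 and PRMT1 to 0.03. These changes follow from how mipafox A differed from mipafox B and C, since those arrays set the block. The cause of that difference between arrays was not tested. The counts at an unadjusted p were less stable. With paraoxon the count of 15 became 25 with normexp background, 12 higher and 22 lower with array weights and 6 with 1 probe per gene, with mipafox the count of 7 became 50 with array weights and 15 on slide 1 alone, and between the organophosphates the count of 3 became 8 with quantile normalization and 21 with array weights. With array weights the shares of all probes at an unadjusted p under 0.05 rose as well, in both directions of all 3 comparisons. In each comparison the weighted share of the class was below that of all probes for higher values and above it for lower ones. For the other alternatives in this list, and for the letter block below, the share of all probes is not given here. None of these counts is read as a trait of the class. The median log2 fold change with 1 probe per gene was 0.01 with paraoxon and 0.06 with mipafox. The end comparison gave 26 to 30 of 37 genes higher downstream under its alternatives of normalization and arrays left out. With the replicate letter as a block, 0 probes were called and 12, 8 and 4 had an unadjusted p under 0.05. The correlations of same-letter deviations from the group means ran from -0.60 to 0.57. With 3 arrays per group they cannot settle whether the letters pair the arrays. Signal over background limits KDM5A, MLL A_33_P3350343 and the 9 untested probes. It also limits HDAC4 A_33_P3301876 and MLL A_24_P136402, each well above background on 3 control, 1 paraoxon and 2 mipafox arrays. Both entered the test only through the control group. HDAC11 A_33_P3417944 was well above background on 8 arrays.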
